A study of Mus musculus with 40 samples.

Results

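RANKL, osteoprotegerin and CSF1 signals were followed through rib regeneration by 5 genes: Tnfsf11, Tnfrsf11a, Tnfrsf11b, Csf1 and Csf1r. The genes were chosen by symbol, and all 5 were among the 21204 genes of the filtered expression table. Bulk RNAseq was performed on rib tissue of wild-type mice, and the labels name no treatment. Immature mice were 7 weeks old, and mature mice were older than 10 months. Samples were taken at baseline and 0, 2, 5, and 14 days after resection of a rib segment (days post-resection, dpr). Baseline samples are labelled as a composite of bone, bone marrow and intercostal muscle and the later samples as bone callus, so that a change of tissue and a change of stage cannot be told apart in comparisons with baseline. The study's text places baseline before resection and describes female mice, whereas the labels say that the baseline tissue was collected after resection. There were n = 4 libraries in every group but the mature 5dpr group, which had n = 3, as replicate 2 of that group was not analysed here. Nothing in the labels ties each library to a separate mouse, so that p-values measure only the spread between these libraries.

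RANKL, encoded by Tnfsf11, is a ligand made by osteoblast lineage cells, osteocytes, hypertrophic chondrocytes and activated lymphocytes. RANKL binds RANK, encoded by Tnfrsf11a, on osteoclast precursors and drives their fusion into bone-resorbing osteoclasts, while osteoprotegerin, encoded by Tnfrsf11b, is a secreted decoy receptor that keeps RANKL from RANK. CSF1, also called M-CSF, acts through the receptor CSF1R to keep monocytes, macrophages and osteoclast precursors alive, and it induces RANK in the precursors. Callus repair needs these signals when cartilage and woven bone are resorbed and remodelled.

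In GRCm38, Tnfsf11 lies on the minus strand at chr14:78277445-78308043, Tnfrsf11b on the minus strand at chr15:54250619-54278484 and Csf1 on the minus strand at chr3:107741048-107760469. Tnfrsf11a lies on the plus strand at chr1:105780718-105847981. All 5 genes are annotated as protein-coding. The summed exons measure 2236 bases for Tnfsf11, 5985 for Tnfrsf11a, 2818 for Tnfrsf11b, 5281 for Csf1 and 5774 for Csf1r.

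The promoters of Tnfsf11 and of 2 genes that moved differently from it, Tnfrsf11a and Csf1, are shown so that their starts can be compared. Each sequence is the 250 bases before the RefSeq start (GRCm38.p6), written along the gene's own strand, at chr14:78308044-78308293 for Tnfsf11, chr1:105780473-105780722 for Tnfrsf11a and chr3:107760470-107760719 for Csf1. Capitals mark the motifs that were found.
Tnfsf11: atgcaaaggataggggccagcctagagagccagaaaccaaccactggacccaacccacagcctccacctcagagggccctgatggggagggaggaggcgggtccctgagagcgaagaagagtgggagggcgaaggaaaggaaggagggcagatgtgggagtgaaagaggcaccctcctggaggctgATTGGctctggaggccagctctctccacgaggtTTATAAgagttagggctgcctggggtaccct
Tnfrsf11a: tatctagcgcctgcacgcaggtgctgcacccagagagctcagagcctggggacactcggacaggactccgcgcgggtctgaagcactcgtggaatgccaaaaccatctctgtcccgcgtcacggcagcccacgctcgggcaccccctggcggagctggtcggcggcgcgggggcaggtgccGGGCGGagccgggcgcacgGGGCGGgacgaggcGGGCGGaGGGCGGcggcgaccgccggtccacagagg
Csf1: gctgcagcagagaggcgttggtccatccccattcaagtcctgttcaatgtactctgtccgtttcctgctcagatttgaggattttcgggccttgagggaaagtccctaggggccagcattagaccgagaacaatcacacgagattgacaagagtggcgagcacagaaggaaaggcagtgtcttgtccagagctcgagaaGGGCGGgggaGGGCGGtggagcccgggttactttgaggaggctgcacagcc

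Both strands were searched for the TATA box as TATAA, the CCAAT box by its own letters, the GC box as GGGCGG, the core bound by PU.1 as GAGGAA, the AP-1 site as TGANTCA and the core bound by RUNX factors as TGTGGT. The Tnfsf11 window held a CCAAT box on the opposite strand, 64 bases before the start, and overlapping TATAA matches, 1 on each strand, 31 and 30 bases before it. The Tnfrsf11a window held 4 GC boxes and the Csf1 window 2, with none of the other motifs. Of 32851 promoters of the same length, 22.8% held the TATA box, 33.8% the CCAAT box, 32.7% the GC box, 23.3% the PU.1 core, 6.75% the AP-1 site and 14% the RUNX core. A match describes the letters of the window only.

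Values are CPM, read counts scaled to library size by TMM, and folds and adjusted p-values are from edgeR's quasi-likelihood test with all 39 libraries and 21204 genes. Total counts per library were between 6057756 and 21537070, with a median of 9087417. Mature 2dpr replicate 3 stood apart from its group, with a mean correlation of 0.893 with the other libraries of its group. The other 3 were at 0.951, 0.947 and 0.947. Without replicate 3, 4 of the 5 genes were still called between 0 and 2dpr in mature mice. Immature 0dpr replicates 1 and 3 were at 0.922 and 0.937 with their own group. Since the tissue was bulk, fewer cells of a type and less RNA per cell cannot be told apart.

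No difference between ages in the change over a step was called for the 5 genes, which does not show that their courses were the same. Both receptors and Csf1 were low at baseline and 0dpr and rose several-fold at 2dpr, and Tnfrsf11b rose with them to a smaller extent. Tnfsf11 did not pass the test at that step, had its lowest mean at 2dpr and its highest at 14dpr. The mean Tnfsf11 to Tnfrsf11b ratio was lowest at 2dpr, when the mean of Tnfrsf11a was highest.

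**Figure D1:**
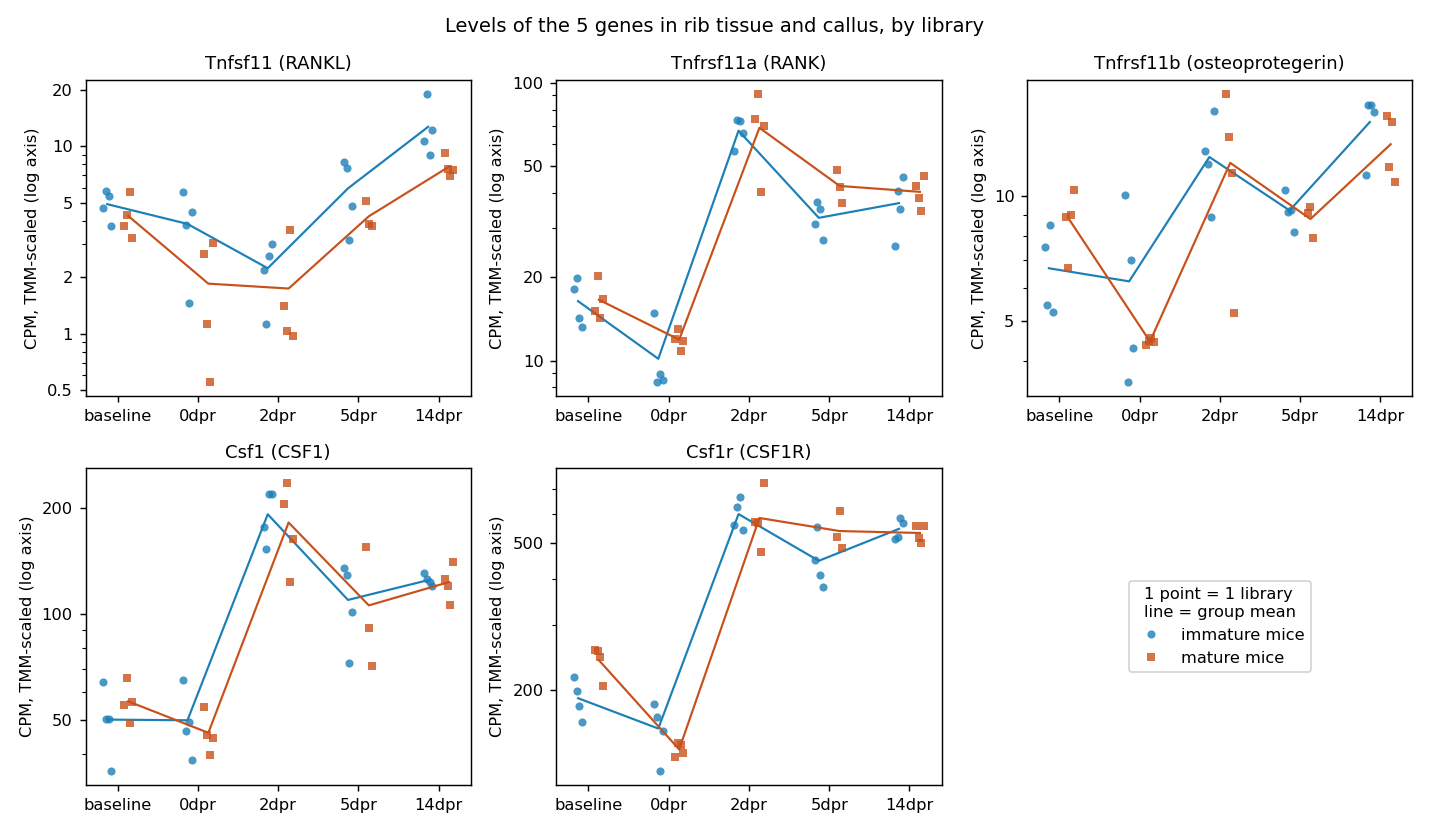
CPM (TMM-scaled, log axis) of the 5 genes in each library by stage, with 1 point per library and a line through the group means of immature (circles) and mature (squares) mice. Tnfrsf11a, Csf1 and Csf1r peak at 2dpr, where their group means are 67.2 and 68.9, 193 and 182, and 598 and 584 CPM in immature and mature mice, while Tnfsf11 is at 2.24 and 1.74 CPM there and peaks at 14dpr.

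Tnfsf11 (ENSMUSG00000022015) was the scarcest of the 5 genes, with 5 to 187 reads per library. At baseline its level was 4.68, 5.77, 5.45 and 3.73 CPM in immature mice and 3.77, 4.27, 5.72 and 3.25 CPM in mature mice. At 0dpr it was 5.68, 3.82, 1.46 and 4.45 CPM in immature and 2.67, 1.12, 0.554 and 3.06 CPM in mature mice, and the libraries of the ages overlapped. At 2dpr it was 2.20, 1.13, 2.60 and 3.02 CPM in immature and 1.40, 1.04, 3.55 and 0.971 CPM in mature mice, where replicate 3 was well above the other 3. The means at 5 and 14dpr were higher. At 5dpr they were 8.25, 7.64, 3.17 and 4.77 CPM in immature and 5.09, 3.86 and 3.74 CPM in mature mice. At 14dpr they were 10.6, 19.0, 9.005 and 12.2 CPM in immature and 9.16, 7.60, 6.91 and 7.48 CPM in mature mice, so that 3 of the 4 immature libraries were above every mature library. Ordered by mean, immature 14dpr was highest at 12.7 ± 4.38 CPM (SD, n = 4) and mature 2dpr lowest at 1.74 ± 1.22 CPM (SD, n = 4). Each pair of neighbours in this order overlapped.

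Tnfrsf11a (ENSMUSG00000026321) was at 14.8, 8.38, 8.92 and 8.49 CPM at 0dpr in immature mice and at 11.9, 12.97, 10.9 and 11.8 CPM in mature mice. At 2dpr it was at 56.7, 73.4, 73.0 and 65.9 CPM in immature and 73.9, 91.0, 40.4 and 70.1 CPM in mature mice. No library at 2dpr came near those at 0dpr, and mature replicate 3 was the lowest of them. Baseline means were 16.4 ± 3.18 CPM in immature and 16.6 ± 2.65 CPM in mature mice, 5dpr means were 32.6 ± 4.46 and 42.5 ± 5.83 CPM, and 14dpr means were 36.9 ± 8.53 and 40.5 ± 5.08 CPM (SD, n = 4, or 3 for mature 5dpr). In the order of means, neighbours overlapped except for 3 pairs, which were immature 2dpr with mature 5dpr, immature 5dpr with mature baseline, and immature baseline with mature 0dpr. Within an age, the libraries of 2 and 5dpr overlapped in mature mice, and those of baseline and 0dpr in immature mice.

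Tnfrsf11b (ENSMUSG00000063727) was at 7.54, 5.46, 8.51 and 5.26 CPM at baseline in immature mice and at 8.91, 6.71, 8.97 and 10.3 CPM in mature mice. At 0dpr it was at 10.0, 3.57, 7.01 and 4.31 CPM in immature and 4.39, 4.49, 4.54 and 4.45 CPM in mature mice. The mature libraries were closely grouped and the immature libraries spread around them. At 2dpr it was at 12.8, 11.9, 8.88 and 15.9 CPM in immature and 17.5, 13.9, 11.3 and 5.23 CPM in mature mice. Means at 5dpr were 9.21 ± 0.879 and 8.79 ± 0.778 CPM, and those at 14dpr, the highest of all, were 15.01 ± 2.56 and 13.3 ± 2.37 CPM in immature and mature mice (SD, n = 4, or 3 for mature 5dpr). Neighbours in the order of the 10 group means all overlapped.

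Csf1 (ENSMUSG00000014599) was at 65.1, 46.5, 49.4 and 38.5 CPM at 0dpr in immature mice and at 54.4, 45.3, 39.7 and 44.5 CPM in mature mice. At 2dpr it was at 177, 153, 220.3 and 220.2 CPM in immature and 206, 237, 123 and 164 CPM in mature mice. Every library at 2dpr was above every library at 0dpr. Means were 50.1 ± 11.5 and 56.5 ± 7.03 CPM at baseline, 109.8 ± 28.8 and 106 ± 43.8 CPM at 5dpr, and 125 ± 4.61 and 123 ± 14.2 CPM at 14dpr in immature and mature mice (SD, n = 4, or 3 for mature 5dpr). In the order of means, a gap separated the 6 groups at 2, 5, and 14dpr from the 4 groups at baseline and 0dpr.

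Csf1r (ENSMUSG00000024621) lies on the plus strand at chr18:61100598-61132149 in GRCm38. Its exons overlap those of Hmgxb3 on the opposite strand, by 873 bases in the longest stretch. The kit was stranded, but how strands were counted was not given in the sources used here. Csf1r was at 183, 169, 121 and 155 CPM at 0dpr in immature mice and at 131, 144, 141 and 135 CPM in mature mice. At 2dpr it was at 559, 625, 667 and 542 CPM in immature and 571, 566, 471 and 727 CPM in mature mice. Later means were 447 ± 75.3 and 538 ± 65.0 CPM at 5dpr and 546 ± 35.3 and 532 ± 29.2 CPM at 14dpr, against 190 ± 22.7 and 240.4 ± 24.0 CPM at baseline (SD, n = 4, or 3 for mature 5dpr). As for Csf1, the groups at 2, 5, and 14dpr did not overlap with those at baseline and 0dpr.

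Between 0 and 2dpr, 4 of the 5 genes rose at each age, against 44% of all genes called in either direction in immature and 47.6% in mature mice. Of all genes, 21.8% and 22.7% were called higher. Tnfrsf11a rose most, at 2.74 on the log2 scale (standard error, SE, 0.209, adjusted p = 1.06e-12) in immature and 2.53 (SE 0.207, adjusted p = 2.5e-12) in mature mice, or 6.66-fold and 5.79-fold. Csf1r rose 3.81-fold (adjusted p = 1.57e-13) and 4.24-fold (adjusted p = 1.82e-14), and Csf1 rose 3.86-fold and 3.97-fold. Tnfrsf11b rose 1.99-fold (log2 0.99, SE 0.275, adjusted p = 0.00346) and 2.66-fold (log2 1.41, SE 0.281, adjusted p = 7.51e-05). Tnfsf11 differed by -0.76 (95% confidence interval -1.63 to 0.11, adjusted p = 0.151) in immature and -0.10 (interval -1.02 to 0.81, adjusted p = 0.871) in mature mice. Without immature 0dpr replicate 3 Tnfsf11 passed in immature mice (log2 -1.07, adjusted p = 0.0436). The median over all genes was -0.04 and -0.05. The libraries of 0 and 2dpr did not overlap for 3 of the 5 genes in immature and 4 of 5 in mature mice, against 38.4% and 34.6% of all genes. The interaction of age with this step was called for none of the 5 genes by edgeR or DESeq2, and none had an unadjusted p under 0.05 (0.0613% of all genes called by edgeR).

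Muscle and macrophage markers moved with this step. The summed level of 8 skeletal muscle markers fell from between 43962 and 105983 CPM at 0dpr to between 6657 and 14616 CPM at 2dpr over both ages, with all 8 markers lower at each age. All 9 macrophage markers rose at each age, and their sum went from 977 to 1724 CPM in immature and 1030.1 to 2159 CPM in mature mice at 0dpr to 6787 to 8498 CPM and 6544 to 8323 CPM at 2dpr. None of these markers was at 0 in every library of a group. With a skeletal muscle score as a covariate, Tnfrsf11a and Csf1r were still called at each age, with log2 fold changes of 2.08 and 1.79 in immature and 1.75 and 1.92 in mature mice. Csf1 was at 1.05 (adjusted p = 0.0651) and 0.92 (adjusted p = 0.179), and Tnfrsf11b at 0.27 (adjusted p = 0.818) and 0.52 (adjusted p = 0.703). Tnfsf11 was at -1.95 (adjusted p = 0.115) and -1.56 (adjusted p = 0.34), and did not pass at either age. The summed muscle levels of 0 and 2dpr did not overlap, so that this fit cannot tell muscle content and stage apart. A call lost in it does not show that muscle made the change. The part of the macrophage markers in the rise was not tested.

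**Figure D2:**
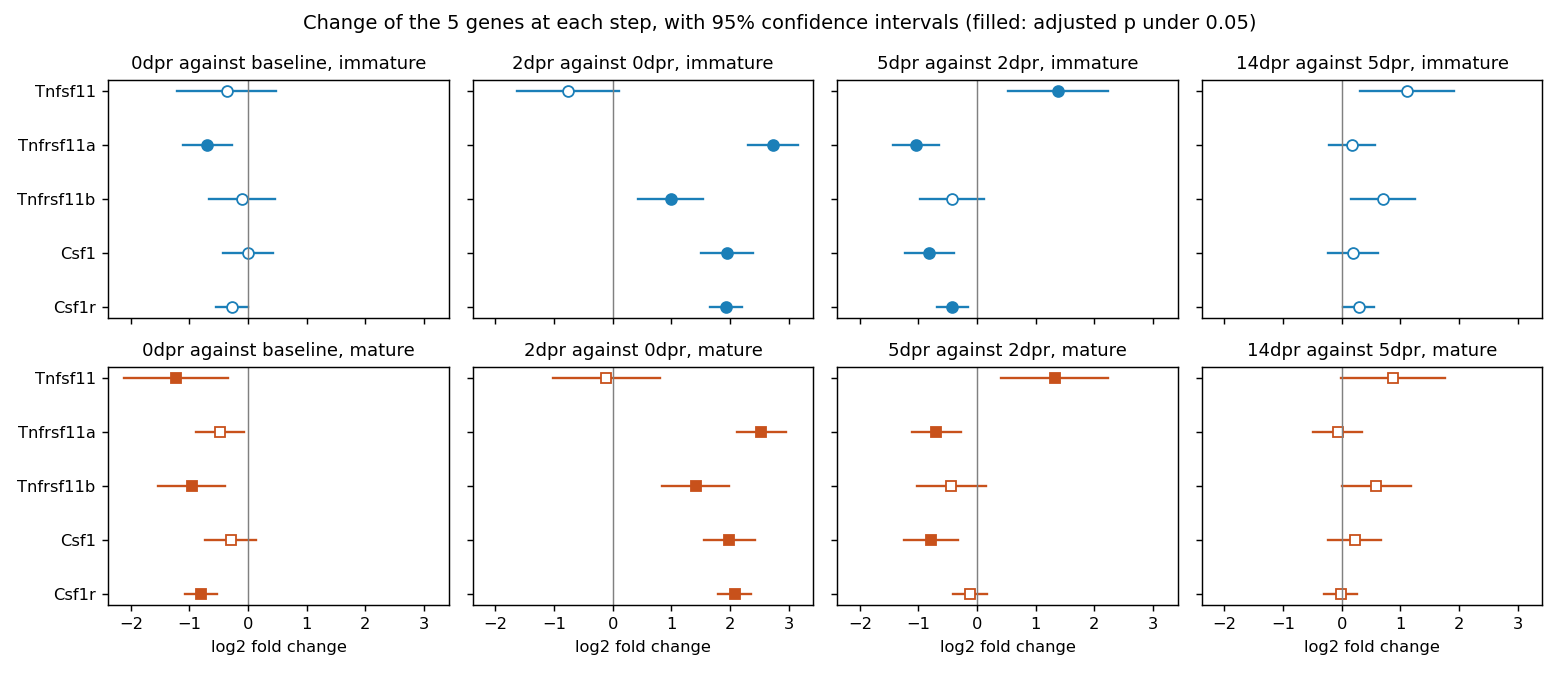
Log2 fold change of the 5 genes at each step between successive stages, with 95% confidence intervals, for immature (upper row) and mature (lower row) mice. Filled symbols have an adjusted p under 0.05 by edgeR. At 2dpr against 0dpr the 4 filled genes lie between 0.99 and 2.74 and Tnfsf11 does not pass, while at 5dpr against 2dpr Tnfsf11 rises at each age.

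Before that step, from baseline to 0dpr, the calls were all downward. Of the 5 genes, 1 fell in immature mice, against 10.6% of all genes called in either direction, and 3 fell in mature mice, against 22.5%. In immature mice this was Tnfrsf11a, which was 1.62-fold lower (log2 -0.70, SE 0.206, adjusted p = 0.0273). Leaving out 1 library at a time kept that call in 4 of 8 fits, with the call lost without immature baseline replicate 2 or 3 and immature 0dpr replicate 3 or 4. In mature mice Tnfsf11 fell 2.35-fold (log2 -1.23, adjusted p = 0.0396), Tnfrsf11b 1.95-fold (log2 -0.96, adjusted p = 0.0122) and Csf1r 1.74-fold (log2 -0.80, adjusted p = 7.76e-05). The Tnfsf11 call held in 3 of 8 fits that each left out 1 library, with adjusted p-values from 0.0143 to 0.188. It was lost without mature baseline replicate 1, 2 or 3 and without mature 0dpr replicate 2 or 3, and in a fit of only the libraries compared (adjusted p = 0.0715), where the call of Tnfrsf11a in immature mice was lost as well (adjusted p = 0.16). In the same step 5 of the 7 osteoblast markers and 8 of the 9 macrophage markers fell and all 8 muscle markers rose in mature mice. With the muscle score as a covariate Csf1r was the single gene still called in mature mice and Tnfrsf11a was at -0.58 (adjusted p = 0.0843) in immature mice, and the part of the other markers in the fall was not tested. The interaction with age was called for none of the 5 genes by edgeR or DESeq2 (0.0141% of all genes by edgeR), with 2 at an unadjusted p under 0.05, which were Tnfrsf11b (0.86, adjusted p = 0.589) and Csf1r (0.53, adjusted p = 0.479). For this interaction 1712 of all 21204 genes had an unadjusted p under 0.05.

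From 2 to 5dpr Tnfsf11 rose at each age, while Tnfrsf11a and Csf1 fell. Tnfsf11 rose 2.61-fold in immature (log2 1.38, SE 0.421, adjusted p = 0.035) and 2.498-fold in mature mice (log2 1.32, SE 0.446, adjusted p = 0.0415). Tnfrsf11a fell by 1.04 on the log2 scale in immature (adjusted p = 0.000437) and by 0.70 in mature mice (adjusted p = 0.0198), and Csf1 fell by 0.81 (adjusted p = 0.0105) and by 0.79 (adjusted p = 0.0165). Csf1r fell by 0.42 (adjusted p = 0.0403) in immature mice, and its difference was -0.12 (adjusted p = 0.636) in mature mice. Of the 5 genes 4 were thus called in immature and 3 in mature mice, against 8.05% and 14.5% of all genes. For Tnfrsf11b the differences were -0.43 (adjusted p = 0.416) and -0.44 (adjusted p = 0.332). With the muscle score as a covariate, the calls of Csf1 (-0.61, adjusted p = 0.0645) and Csf1r (-0.39, adjusted p = 0.0967) in immature mice and of Tnfrsf11a (-0.49, adjusted p = 0.172) and Csf1 (-0.53, adjusted p = 0.147) in mature mice were lost. In a fit of only the libraries compared, those of Tnfsf11 (adjusted p = 0.378), Tnfrsf11a (adjusted p = 0.204) and Csf1 (adjusted p = 0.236) in mature mice were lost. The interaction with age was called for none of the 5 genes, or of all genes (0%), by edgeR, and for none of the 5 by DESeq2 or at an unadjusted p under 0.05.

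The rise of Tnfsf11 was close to the threshold. It held in 3 of 8 fits in immature mice that each left out 1 library, and in 1 of 7 in mature mice, in which the left-out library was mature 2dpr replicate 3 (log2 1.89, adjusted p = 0.00319). In immature mice it was lost without 2dpr replicate 1, 2 or 3 and without 5dpr replicate 2 or 3. The count of the 5 genes called in mature mice fell from 3 to 0 without mature 2dpr replicate 2, 5dpr replicate 3 or 5dpr replicate 4. The fall of Csf1r in immature mice held in 3 of 8 such fits and was lost without 2dpr replicate 2 or 3 or 5dpr replicate 2, 4 or 5, and that of Csf1 was lost without 5dpr replicate 4 (adjusted p = 0.0697). In immature mice the count fell from 4 to 2 without 2dpr replicate 2 or 3 or 5dpr replicate 2 or 4.

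From 5 to 14dpr none of the 5 genes was called by edgeR or DESeq2 at either age, against 3.18% and 4.18% of all genes by edgeR. At an unadjusted p under 0.05 there were 3 in immature mice and 1 in mature mice. Of all 21204 genes, 2965 in immature and 3905 in mature mice were under 0.05. The share of the 5 genes in mature mice was thus near that of all genes. Tnfsf11 was 2.16-fold higher at 14dpr in immature (log2 1.11, 95% confidence interval 0.31 to 1.92, adjusted p = 0.132) and 1.84-fold higher in mature mice (log2 0.88, interval -0.00 to 1.77, adjusted p = 0.274). Tnfrsf11b was 1.63-fold (adjusted p = 0.163) and 1.51-fold higher (adjusted p = 0.265). The libraries of 5 and 14dpr did not overlap for these 2 genes at either age, against 15.1% of all genes in immature and 25.6% in mature mice. In a fit of only the libraries compared, both genes passed at each age. The interaction with age was called for none of the 5 genes, or of all genes (0%), by edgeR, and for none of the 5 by DESeq2 or at an unadjusted p under 0.05.

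The mean of each gene was higher at 14dpr than at baseline. In immature mice 5 of the 5 genes were higher, against 31.4% of all genes called in either direction and 16.4% called higher. These were Tnfsf11 at 2.59-fold (log2 1.37, adjusted p = 0.00789), Tnfrsf11a at 2.26-fold, Tnfrsf11b at 2.25-fold (adjusted p = 0.000955), Csf1 at 2.496-fold and Csf1r at 2.88-fold. In mature mice Tnfrsf11a at 2.44-fold, Csf1 at 2.18-fold and Csf1r at 2.21-fold were higher, 3 of 5 against 33.5% of all genes. Tnfsf11 was at 1.82-fold (adjusted p = 0.0972) and Tnfrsf11b at 1.52-fold (adjusted p = 0.0798) there, and both passed in a fit of only the libraries compared. The libraries of 14dpr and baseline overlapped for none of the 5 genes at either age, and 38.9% and 37.6% of all genes likewise did not overlap. With the muscle score as a covariate, Csf1r was the single gene still called in immature mice (log2 1.42, adjusted p = 1.37e-05), and the 3 calls in mature mice held. Of the muscle markers, 8 of 8 in immature and 7 of 8 in mature mice were lower at 14dpr than at baseline.

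**Figure D3:**
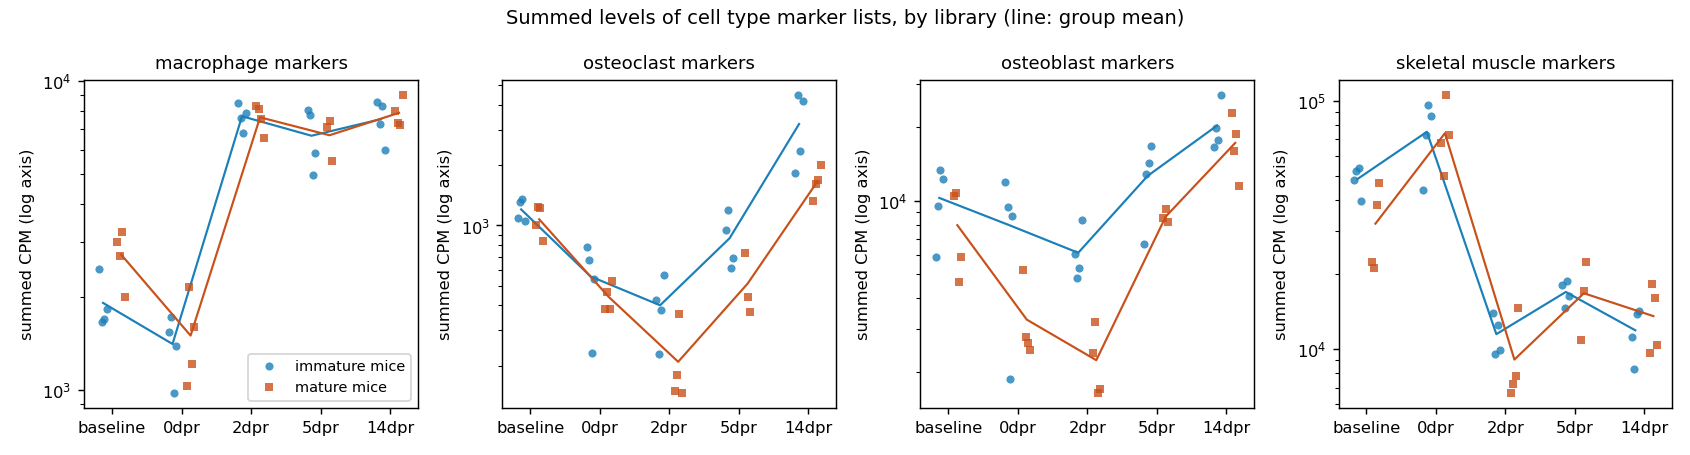
Summed CPM (log axis) of marker lists for macrophages (9 genes), osteoclasts (6), osteoblasts (7) and skeletal muscle (8) in each library by stage, with a line through group means. Macrophage markers rise and muscle markers fall between 0 and 2dpr, while osteoclast markers are at their lowest at 2dpr and highest at 14dpr, between 1825 and 4489 CPM in immature and 1318 and 1991 CPM in mature mice.

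The balance of RANKL against its decoy was read from RNA only, as the Tnfsf11 to Tnfrsf11b ratio of counts in each library. This ratio need not follow that of the proteins. At baseline it was 0.621, 1.06, 0.64 and 0.709 in immature and 0.424, 0.638, 0.637 and 0.315 in mature mice. At 0dpr it was 0.567, 1.07, 0.208 and 1.03 in immature and 0.607, 0.25, 0.122 and 0.688 in mature mice. The spread at 0dpr was wide at both ages, and the lowest of these values rested on 5 reads of Tnfsf11 and 41 of Tnfrsf11b, with an exact (Clopper-Pearson) 95% counting interval of 0.0376 to 0.308. At 2dpr it was 0.172, 0.0943, 0.292 and 0.19 in immature and 0.0802, 0.075, 0.314 and 0.186 in mature mice. Over all stages, Tnfsf11 reads outnumbered Tnfrsf11b reads in 4 libraries, which were immature baseline replicate 3, immature 0dpr replicates 2 and 4 and immature 14dpr replicate 2. The 95% counting interval of each of these 4 ratios included 1. At 5dpr the ratio was 0.8, 0.836, 0.343 and 0.585 in immature and 0.562, 0.411 and 0.473 in mature mice, and at 14dpr 0.946, 1.15, 0.546 and 0.772 in immature and 0.589, 0.648, 0.459 and 0.692 in mature mice. No library at 5 or 14dpr was as low as those at 2dpr. Scaled by exon length, the mean ratio in immature mice went from 0.906 at 0dpr to 0.236 at 2dpr and 1.07 at 14dpr, and in mature mice from 0.525 to 0.206 and 0.752. So scaled, immature 5dpr replicates 2 and 3 and immature 14dpr replicate 1 were above 1 as well, at 1.01, 1.05 and 1.19.

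On the log2 scale the mean ratio went from -0.70 at 0dpr to -2.42 at 2dpr in immature mice, a 3.29-fold difference (exact two-sided permutation p = 0.0571, adjusted p = 0.286 over 15 comparisons). In mature mice it went from -1.42 to -2.70, a 2.43-fold difference (exact permutation p = 0.143, adjusted p = 0.357), and the libraries of the stages overlapped at both ages. From 2 to 5dpr it was 3.28-fold higher in immature mice, without overlap between the libraries (exact permutation p = 0.0286, the smallest that 4 libraries against 4 can give, adjusted p = 0.286). In mature mice it was 3.19-fold higher at 5dpr, also without overlap (exact permutation p = 0.0571, adjusted p = 0.286). None of the 15 comparisons of the ratio passed after adjustment, and 1 had an unadjusted p under 0.05. With so few libraries, a comparison at the smallest possible p could not pass adjustment unless many others reached it too. The lack of a pass therefore does not show that the ratio was unchanged. The mean ratio was higher in immature than in mature mice at each of the 5 stages, by 1.22-fold at 2dpr to 1.65-fold at 0dpr, and the libraries of the ages overlapped at each stage (exact permutation p from 0.114 to 0.6, adjusted p from 0.357 to 0.686).

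**Figure D4:**
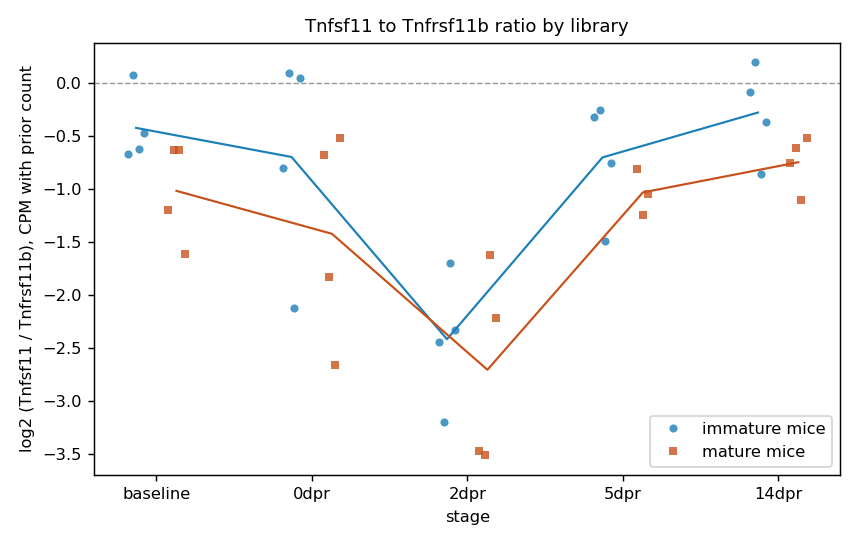
Log2 of the Tnfsf11 to Tnfrsf11b ratio (CPM with a prior count of 2) in each library by stage, with a line through the group means of immature (circles) and mature (squares) mice. The dashed line marks equal CPM, not scaled by exon length. The group means are lowest at 2dpr, at -2.42 and -2.70, and return to -0.28 and -0.75 at 14dpr.

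Immature and mature mice were then compared at each stage. None of the 5 genes was called by edgeR or DESeq2 at any of the 5 stages, against 0.585% of all genes at baseline, 0.726% at 0dpr, 0.627% at 2dpr, 0% at 5dpr and 0.00943% at 14dpr. At an unadjusted p under 0.05 there was 1 at baseline, Csf1r, and 1 at 0dpr, Tnfsf11. Of all 21204 genes, 2482 were under 0.05 at baseline and 2278 at 0dpr. Csf1r was at a log2 difference of -0.34 at baseline (95% confidence interval -0.61 to -0.07, adjusted p = 0.275), lower in immature mice. The fitted level of Tnfsf11 was higher in immature mice at each stage, by a log2 difference of 0.20 at baseline, 1.06 at 0dpr (interval 0.16 to 1.97, adjusted p = 0.334), 0.41 at 2dpr, 0.47 at 5dpr and 0.71 at 14dpr (interval -0.09 to 1.504, adjusted p = 1). Tnfrsf11a had the opposite sign at each stage, from -0.02 at baseline to -0.38 at 5dpr, with the sign turned at baseline by the replicate block or the muscle covariate and at 2dpr by the muscle covariate. For Csf1 the differences ran from -0.17 to 0.12, with intervals between -0.60 and 0.55, and its sign turned at baseline with the replicate block or the muscle covariate and at 14dpr with the muscle covariate. The libraries of the ages overlapped for each of the 5 genes at each stage, where 9.05% of all genes did not overlap at baseline, 3.73% at 0dpr, 4.98% at 2dpr, 10.2% at 5dpr and 5.49% at 14dpr.

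**Figure D5:**
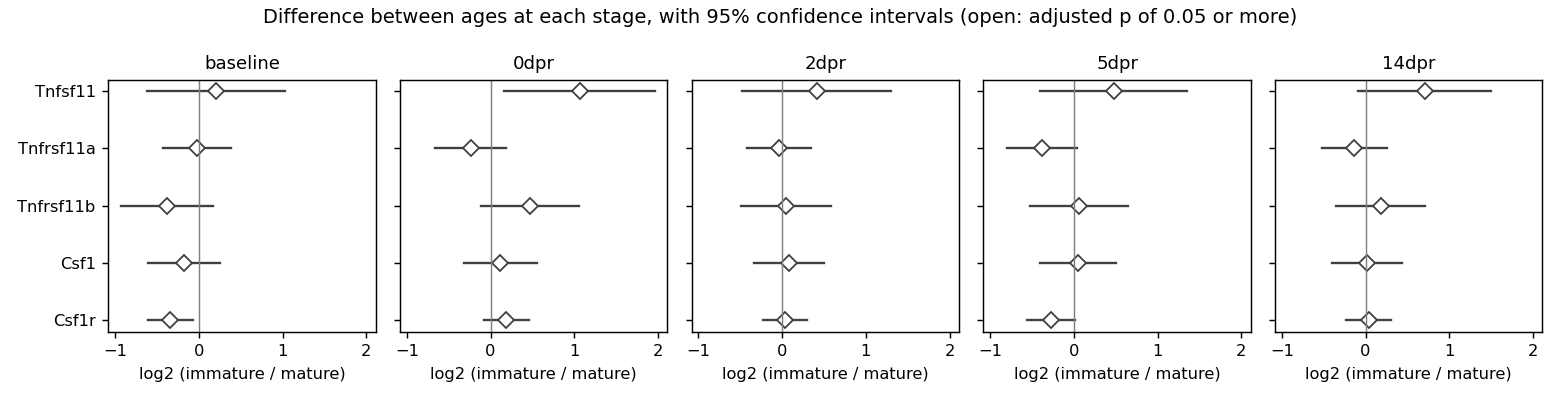
Log2 difference of immature against mature mice for the 5 genes at each stage, with 95% confidence intervals by edgeR. Open symbols have an adjusted p of 0.05 or more. Every symbol is open, and the intervals of Tnfsf11 are the widest at each stage.

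Across the 10 groups, the mean log2 CPM of Tnfrsf11a, Csf1 and Csf1r moved together, with Pearson r of 0.972 for Tnfrsf11a with Csf1, 0.96 for Tnfrsf11a with Csf1r and 0.949 for Csf1 with Csf1r. For Tnfrsf11b, r was 0.82 with Tnfrsf11a, 0.851 with Csf1 and 0.906 with Csf1r. For Tnfsf11, r was 0.0122 with Tnfrsf11a and 0.477 with Tnfrsf11b. These are descriptions over 10 group means that share their libraries and tissue mix. Among 16147 genes of at least 1 CPM on average, the genes most like Tnfsf11 by this measure were Colec12 (r = 0.976), Col1a2 (0.972), which encodes a chain of type I collagen, Serinc5, Mpzl1 and Gxylt2. Those most like Tnfrsf11a were Shisa5 (0.996), Cacna1d, Lrrc25, Susd3 and C5ar1, the receptor of complement C5a. For Tnfrsf11b they were Traf1 (0.97), Gm15832, Arl10, Nfkb1, a subunit of NF-κB, and Emb. For Csf1 they included Gm2a, Gna13, Alcam and Adgre5, and for Csf1r they were Pisd (0.996), Renbp, Ftl1, the ferritin light chain, Uap1l1 and Galk2.

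Compared per kilobase of exon, the mean level of Tnfrsf11a was above that of its ligand Tnfsf11 in every group but immature 0dpr, where they were at 1.70 ± 0.519 and 1.72 ± 0.793 CPM per kilobase (SD, n = 4). In immature mice Tnfsf11 was at 1.00 ± 0.363 CPM per kilobase at 2dpr and 5.68 ± 1.96 at 14dpr (SD, n = 4). Tnfrsf11a was at 11.2 ± 1.3 at 2dpr and 6.16 ± 1.43 at 14dpr (SD, n = 4). In mature mice Tnfsf11 was at 0.779 ± 0.547 and 3.48 ± 0.431, and Tnfrsf11a at 11.5 ± 3.51 and 6.77 ± 0.849 CPM per kilobase at 2 and 14dpr (SD, n = 4). At 14dpr the libraries of the 2 genes overlapped in immature but not in mature mice.

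Other ligands and receptors of these signals were read from a list of 14 partners. On this list and those below, genes were named from the 3 largest changes in each direction at each age on its own. A gene named at 1 age may thus have been called at the other age too. Between 0 and 2dpr 6 were called higher and 2 lower in the immature and 6 higher and 1 lower in the mature groups, where 44% and 47.6% of all genes were called and 21.8% and 22.7% were called higher. The share of partners called in either direction in mature mice was thus near that of all genes. The medians were 1.05 and 0.70 on the log2 scale, against -0.04 and -0.05 over all genes. Under the muscle covariate, 1 partner in immature and 2 in mature mice were called higher. Il34, the second ligand of CSF1R, was called in no comparison by edgeR, with mean levels from 6.76 to 11.1 CPM over the 10 groups. Lgr4, a further receptor of RANKL, fell from 52.8 to 21.6 CPM in immature (log2 -1.29, adjusted p = 2.33e-08) and from 44.0 to 18.7 CPM in mature mice (log2 -1.24, adjusted p = 4.14e-08). Before this, Lgr4 had risen from baseline to 0dpr by 0.60 (adjusted p = 0.0128) and 0.80 (adjusted p = 0.000381). Tnfsf10, the TRAIL ligand that osteoprotegerin also binds, fell by 0.66 in immature mice (adjusted p = 0.0466), and its difference was -0.46 in mature mice (adjusted p = 0.157). The receptor chains of GM-CSF rose at each age, with Csf2rb at 2.21 and 2.39 and Csf2ra at 1.99 and 2.27 on the log2 scale. Csf3r, the G-CSF receptor, rose by 1.45 in immature mice, and Tnfrsf10b, a receptor of TRAIL, by 2.16 in mature mice. Csf3 had no read in any mature library at 0dpr, and with it at the bound of 3 reads over the group the median was again 0.70.

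Of 31 genes that signal downstream of RANK, 16 were called higher and 4 lower in the immature and 18 higher and 3 lower in the mature groups between 0 and 2dpr, against 44% and 47.6% of all genes called in either direction, with medians of 0.48 and 0.55. The fit with the muscle score called 5 at each age higher and 2 lower. Trem2, a co-receptor on macrophages and osteoclast precursors, and Fcer1g, an adaptor that carries signals of such co-receptors, rose by 6.44 and 3.01 in immature mice and by 4.43 and 2.51 in mature mice. Fosl1 was also called higher, from at most 0.0909 CPM on average at 0dpr to 5.72 and 5.30 CPM at 2dpr in immature and mature mice. Its libraries of 0 and 2dpr overlapped in mature but not in immature mice. Oscar, an osteoclast co-receptor, fell by 1.78 in immature (adjusted p = 0.00247) and by 3.20 in mature mice (adjusted p = 4.25e-06). Mapk14 fell at each age, by 0.34 and 0.31, Fos fell by 1.22 in immature mice, and Nfatc1, the master factor of osteoclast formation, fell by 0.45 in mature mice (adjusted p = 0.0363). Trem2 was the 1 gene of the 31 called between ages at 0dpr, lower in immature mice by 1.80 on the log2 scale (adjusted p = 0.00113).

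Of 17 genes downstream of CSF1R or of the monocyte lineage, 12 rose and 1 fell at each age, against the same 44% and 47.6% of all genes called, with medians of 1.03 and 1.04. Spi1, which encodes the lineage factor PU.1, rose by 2.44 in immature and 2.12 in mature mice, and Inpp5d, which encodes the phosphatase SHIP1, by 1.81 and 1.90. Pik3r1, a regulatory subunit of PI3-kinase, was the gene that fell, by 1.12 and by 0.94. With the muscle score as a covariate, 7 genes in immature and 5 in mature mice were called higher.

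Osteoclast genes moved both ways between 0 and 2dpr. Of 14 genes, 4 were called higher and 4 lower in the immature and 3 higher and 7 lower in the mature groups, against 44% and 47.6% of all genes called, with medians of -0.32 and -0.98. The fit with the muscle score called 1 higher at each age, and 2 lower in immature and 5 in mature mice. Those that rose included Tcirg1, a subunit of the proton pump (2.09 and 1.91), and Clcn7, a chloride-proton exchanger of lysosomes (0.78 and 0.95). Atp6v0d2 rose in immature (1.38) and Ostm1 in mature mice (0.47). Those that fell included Acp5, the resorption enzyme TRAP, in immature mice (-0.83, adjusted p = 0.0345), Calcr, the calcitonin receptor, in immature mice (-2.62), and Itgb3 (-1.74) and Car2 (-2.93) in mature mice. Each was among the 3 largest falls at the age named, which is no statement about the other age. At 14dpr against baseline, 9 were called higher and 1 lower in the immature and 2 higher and 2 lower in the mature groups, against 31.4% and 33.5% of all genes called, with medians of 0.97 and 0.16, and an age difference in this count was not tested. Chosen after their values were seen, Ctsk, the collagen-degrading protease, rose at both ages (1.51, adjusted p = 0.000719, and 1.08, adjusted p = 0.0119), and Dcstamp and Ocstamp, which drive precursor fusion, rose in immature mice (1.87 and 2.00). With the muscle score as a covariate 1 of the 14 was called higher at 14dpr in immature and none in mature mice.

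Of 21 agents known to raise RANKL or lower osteoprotegerin, 20 were tested. Between 0 and 2dpr 11 were called higher and 4 lower in the immature and 15 higher and 1 lower in the mature groups, against 44% and 47.6% of all genes called, with medians of 1.56 and 1.63. Under the muscle covariate, 5 in immature and 6 in mature mice were called higher and 1 at each age lower. Tnf rose in immature mice from 1.32 to 22.2 CPM, a log2 fold change of 4.10. Il1b rose by 3.14 and 3.88, and Ptgs2, the inducible enzyme of prostaglandin synthesis, by 2.94 and 4.34 in immature and mature mice. Il6 rose from 0.336 to 4.93 CPM in mature mice. Tnf and Il6 were each named where they were among the 3 largest rises, which is no statement about the other age. The receptor of parathyroid hormone, Pth1r, fell by 0.78 and by 1.41, and Vdr, the vitamin D receptor, and Pthlh fell in immature mice by 1.09 and by 1.36.

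Of 19 agents known to raise osteoprotegerin or restrain osteoclasts, 17 were tested, of which 4 were called higher and 7 lower in the immature and 4 higher and 5 lower in the mature groups between 0 and 2dpr, where 44% and 47.6% of all genes were called, so that the share in mature mice was near that of all genes. The medians were -0.33 and -0.36, and with the muscle score as a covariate 1 was called higher and 1 lower at each age. Ifng had no read in any immature library at 0dpr, and with it at the bound of 3 reads over the group the median there was -0.54. Il10 rose from 0.364 to 2.70 CPM in immature and 0.393 to 3.98 CPM in mature mice. Irf8, which restrains osteoclast formation, and Tgfb1 rose in immature mice by 1.70 and 1.202, and Il27 rose from 0.326 to 2.11 CPM in mature mice. The WNT ligands Wnt10b, Wnt16 and Wnt4 were among those that fell, Wnt10b by 1.90 in immature and by 2.70 in mature mice, Wnt16 by 1.80 in immature and Wnt4 by 2.11 in mature mice. Esr1, the estrogen receptor, fell by 1.60 and by 1.77. Genes of this list given at 1 age were among the 3 largest changes there, and the other age is not described by this. In all, 1 of the genes on the 6 lists was called between ages at 0dpr and none at 2dpr by edgeR, while DESeq2 called 2 and 1.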

How the data were processed

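Total RNA was sequenced from stranded libraries on separate runs, and which library was in which run was not given in the sources used here. The authors aligned reads with STAR 2.5.2a to GRCm38 and deposited raw read counts per gene and a TMM-scaled CPM signal for 21204 filtered genes, which equalled CPM recomputed from the deposited counts. Counts of 39 libraries in 10 groups were fitted together with edgeR 4.0.16 in R 4.3.3 (TMM, quasi-likelihood F-test, Benjamini-Hochberg adjustment over 21204 genes, threshold 0.05) in 19 comparisons. Total counts were 6057756 to 21537070 per library. The Tnfsf11 to Tnfrsf11b ratio was the difference of log2 CPM (prior count 2), compared by an exact two-sided permutation test in 15 comparisons, whose smallest p is 0.0286. Counting intervals cover counting error only. Simulated data for 2dpr against 0dpr in immature mice (21204 genes, 200 changed) gave calls for 52% of 2-fold and 83% of 4-fold changes. In the data 44% of genes were called at this step, far more than were changed in the simulation, so that these shares need not apply there.

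All 5 members were named. From each of 6 gene lists, the 3 genes of at least 1 CPM with the largest change in each direction were named. This was done for 2dpr against 0dpr at each age on its own and for ages at 0 and 2dpr. Il34, Lgr4 and Tnfsf10 were named throughout. The 5 genes with the highest r were named per member. Some genes that these rules select are not reported here. Members and lists were chosen with earlier results of these data known. Alternatives were DESeq2 1.42.0, other size factors and filters, a replicate block, a skeletal muscle score as covariate, a fit of only the libraries compared and leaving out each library. Replicate numbers deviated together for ages at 0dpr alone (4 pairs, r from 0.109 to 0.207).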

Additional observations from a re-analysis of the deposited data

Results flagged for a closer look

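Of 54 groups of values tested for a library apart from the rest by Dixon's ratio, 3 held one, and chance alone gives about 1 in 20. In mature mice at 2dpr, Tnfsf11 was at 3.55 CPM in replicate 3 and between 0.971 and 1.40 CPM in the other libraries. In immature mice at 0dpr, Tnfrsf11a was at 14.8 CPM in replicate 1 and between 8.38 and 8.92 CPM in the others. In immature mice at 14dpr, Tnfrsf11b was at 11.2 CPM in replicate 1 and between 15.8 and 16.5 CPM in the others.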

How the results depend on the processing

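With the skeletal muscle score as a covariate, the members called went from 1 to 0 (immature) and 3 to 1 (mature) for 0dpr against baseline, from 4 to 2 at each age for 2dpr against 0dpr, from 4 to 2 and 3 to 1 for 5dpr against 2dpr, and from 5 to 1 in immature mice for 14dpr against baseline. In the same fit of 2dpr against 0dpr, genes called higher in immature and mature mice were 1 and 2 partners, 5 and 5 of RANK signalling, 7 and 5 of CSF1R signalling, 1 and 1 osteoclast genes, 5 and 6 agents raising RANKL and 1 and 1 raising osteoprotegerin, and genes called lower were 1 and 0 partners, 2 of RANK signalling, 2 osteoclast genes and 1 agent raising RANKL (these 3 in immature mice), and 1 and 1 agents raising osteoprotegerin. For 14dpr against baseline it left 1 osteoclast gene higher and 0 lower in immature and 0 higher in mature mice, and it gave 2 pathway genes between ages at 2dpr. The muscle markers changed with stage, so that a call lost in this fit does not tell muscle content and stage apart. The cause was not tested.

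In a fit of only the libraries compared, members called were 0 for 0dpr against baseline (immature), 0 for 5dpr against 2dpr (mature), 2 at each age for 14dpr against 5dpr and 5 for 14dpr against baseline (mature). Lower calls at 2dpr against 0dpr were then 1 partner, 2 of RANK signalling, 1 agent raising RANKL and 4 raising osteoprotegerin in immature mice and 1 of RANK signalling in mature mice, with 6 osteoclast genes higher at 14dpr against baseline in mature mice and 0 pathway genes between ages at 0dpr. Without a filter, lower calls were 1 partner, 2 of RANK signalling and 4 agents raising osteoprotegerin (immature) and 1 of RANK signalling (mature). Partners called lower were 4 and 2 with RLE size factors or filterByExpr and 4 and 3 with DESeq2, which called 2 and 1 pathway genes between ages at 0 and 2dpr. With fewer samples or other genes tested the threshold itself moves.

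The replicate block gave 2 members for 5dpr against 2dpr (immature) and 0 osteoclast genes lower at 14dpr against baseline (immature). Under the block Tnfsf11 did not pass for 5dpr against 2dpr (1.52, adjusted p = 0.0544, in immature and 1.295, adjusted p = 0.0695, in mature mice), for 14dpr against baseline in immature mice (1.23, adjusted p = 0.0508, leaving 4 members called) or for 0dpr against baseline in mature mice (-1.24, adjusted p = 0.0545), nor did Csf1r for 5dpr against 2dpr in immature mice (-0.35, adjusted p = 0.174). It changed no other call of a member, and for the ratio at most 4 pairs are too few for a paired sign-flip test to pass. Libraries of the same replicate number deviated together for ages at 0dpr alone, and weakly (r from 0.109 to 0.207), which does not show that they were pairs. The block left 0 members called there.

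Leaving out 1 library at a time gave 0 to 1 members for 0dpr against baseline (immature) and 2 to 4 and 0 to 3 for 5dpr against 2dpr. Lower calls at 2dpr against 0dpr ran from 1 to 4 partners, 2 to 5 osteoclast genes, 1 to 4 agents raising RANKL and 3 to 7 raising osteoprotegerin in immature and from 1 to 2 partners, 1 to 3 of RANK signalling and 1 to 2 agents raising RANKL in mature mice. Osteoclast genes lower at 14dpr against baseline (immature) ran from 0 to 1, and pathway genes between ages from 1 to 3 at 0dpr and 0 to 2 at 2dpr. The log2 ratio ran from -0.54 to 0.20 for 0dpr against baseline in immature mice (0.17 by medians), from -0.71 to 0.0083 in mature mice and from -0.013 to 0.34 for 14dpr against baseline in immature mice.

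Differences of members that did not pass the test turned sign near 0. For ages, Tnfrsf11a went to 0.090 (block) and 0.16 (muscle) at baseline and 0.080 (muscle) at 2dpr, and Csf1 to 0.0093 (block) and 0.067 (muscle) at baseline and -0.028 (muscle) at 14dpr. For 0dpr against baseline, Tnfrsf11b went to 0.015 (muscle, immature) and Csf1 to 0.043 (RLE, DESeq2), 0.044 (filterByExpr) and 0.15 (muscle) in immature and 0.10 (muscle) in mature mice. For 14dpr against 5dpr in mature mice, Csf1r went to 0.026 (RLE, DESeq2), 0.017 (filterByExpr), 0.036 (no filter) and 0.0039 (only the libraries compared). Leaving out 1 library turned ages for Tnfrsf11a (-0.13 to 0.094 at baseline, -0.22 to 0.13 at 2dpr, -0.25 to 0.0025 at 14dpr), Tnfrsf11b (-0.21 to 0.30 at 2dpr, -0.0057 to 0.12 at 5dpr), Csf1 (-0.023 to 0.23 at 0dpr, -0.069 to 0.23 at 2dpr, -0.17 to 0.43 at 5dpr, -0.047 to 0.087 at 14dpr) and Csf1r (-0.055 to 0.16 at 2dpr). It also turned 0dpr against baseline in immature mice for Tnfrsf11b (-0.44 to 0.070) and Csf1 (-0.19 to 0.13), and in mature mice Tnfsf11 for 2dpr against 0dpr (-0.67 to 0.30), Csf1r for 5dpr against 2dpr (-0.22 to 0.0054) and, for 14dpr against 5dpr, Tnfrsf11a (-0.16 to 0.036) and Csf1r (-0.088 to 0.083). Depth limits Tnfsf11 most, with 5 to 187 reads per library.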
